A study of Arabidopsis thaliana with 21 samples.

Results

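The genes described here are the beta-glucosidase genes (BGLU) and the serine carboxypeptidase-like genes (SCPL) of Arabidopsis thaliana. They were taken as the genes whose symbol in the array annotation begins with BGLU or SCPL followed by a digit and which have a probe set that maps to 1 gene. The rule found 49 genes, 20 BGLU and 29 SCPL, of 13356 genes named in this way, and each had 1 probe set. Another 3 probe sets that map to several genes carry 5 further family symbols (BGLU21, BGLU22, SCPL36, SCPL37 and SCPL39) and were not used.

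Transcript levels were measured on 21 arrays, 3 biological replicates in each of 7 groups, in RNA from whole aerial parts. All plants were of the Col-0 ecotype and grew on soil for 3 weeks at 22 °C under a 12 h photoperiod. Plants of the triple mutant camta1/2/3 and of the wild type (WT) were moved to 4 °C for 24 h under the same photoperiod, and camta1/2/3, the double mutants camta2/3, camta1/3 and camta1/2, and WT were also taken at 22 °C. CAMTA genes encode calmodulin-binding transcription activators, and the design asks how their loss changes transcript levels in warm and cold plants. The labels name no mutant allele, and no probe set was named CAMTA1, CAMTA2 or CAMTA3 here, so the arrays gave no check of the genotypes.

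Beta-glucosidases of this family (glycoside hydrolase family 1) cut a sugar from small molecules, and plants keep many hormones, defence compounds, flavonols and lignin precursors as inactive glucosides that such an enzyme can release. Serine carboxypeptidase-like proteins share the fold of vacuolar carboxypeptidases, which trim amino acids from the end of proteins. A branch of the family, with SCPL16 and SCPL18 in it, is related to acyltransferases that use glucose esters, such as sinapoylglucose, as acyl donors.

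The deposited values are log2 levels and ran from 2.17 to 14.27. Array medians lay between 4.86 and 5.01, and 59.8% to 60.7% of probe sets on an array lay over a level of 4, which is used here as a mark of low signal since no detection calls were used. A gene is called where limma gave an adjusted p under 0.05 (Benjamini-Hochberg over 22746 probe sets), differences are log2 differences ± SE, and levels are group means ± SD with n = 3 arrays. A level of about 3 or less may be background, so a difference from such a group may be a lower bound. For some probe sets background may lie higher. SCPL18, for example, stood at 3.20 on every array of WT and the double mutants at 22 °C. The leaf marker RCA (Rubisco activase) had 13.66 ± 0.17 and LHCB4.2 (a light-harvesting protein) 12.45 ± 0.16 in WT at 22 °C. Of 6 root markers 2 were measured. EXPA7 stood at the lowest deposited value, 2.17, in every group. PYK10 did not, with group means from 6.40 ± 0.05 (WT at 4 °C) to 8.83 ± 0.43 (camta1/2/3 at 22 °C). PYK10 is given again below with the genes of its family. The part of root content in the results was not tested. None of 4 flower and 2 seed markers was measured. The 3′ minus 5′ difference of the actin control probe sets, which widens as RNA breaks down, was 3.11 ± 1.0 in camta1/2/3 and 2.00 ± 0.62 in WT at 4 °C, and 2.90 ± 0.13 in camta1/2/3 and 2.23 ± 0.21 in WT at 22 °C. It was widest in replicate 2 of camta1/2/3 at 4 °C (4.25), against 2.67 and 2.41 in replicates 1 and 3 of that group. Within WT at 4 °C it was also widest in replicate 2 (2.71), against 1.57 and 1.71 in replicates 1 and 3.

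Of the 49 genes, 26 had a mean under 4 in all 7 groups (11 BGLU and 15 SCPL), with group means from 2.17 to 3.65. Among these 26 genes SCPL31 alone was called in a comparison. In all, 20 genes (40.8%) were called in at least 1 of 10 comparisons, 7 BGLU and 13 SCPL, against 44.9% of all probe sets. The genes of low signal hold down each share of the 49 genes given below. For that reason the shares among the 19 genes with a mean over all arrays above 4 are set beside those of the 13847 probe sets above the same level, as a description with no test. The 29 genes never called comprised 25 with low signal and 4 with a group mean of at least 4. The 4 were BGLU28 (glucosinolate breakdown), BGLU42 (release of scopoletin in roots), SCPL25 and SCPL42, and their group means differed by at most 0.55 between any groups. The never-called genes of low signal were BGLU19, BGLU24, BGLU27, BGLU29, BGLU31, BGLU32, BGLU36, BGLU41, BGLU43, BGLU45, BGLU46, SCPL18, SCPL21, SCPL22, SCPL23, SCPL28, SCPL30, SCPL32, SCPL33, SCPL38, SCPL40, SCPL41, SCPL43, SCPL44 and SCPL47, and their group means differed by at most 0.37. BGLU36 is also named TGG6, and BGLU45 and BGLU46 are known to cut monolignol glucosides, the stored form of lignin precursors.

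**Figure D1:**
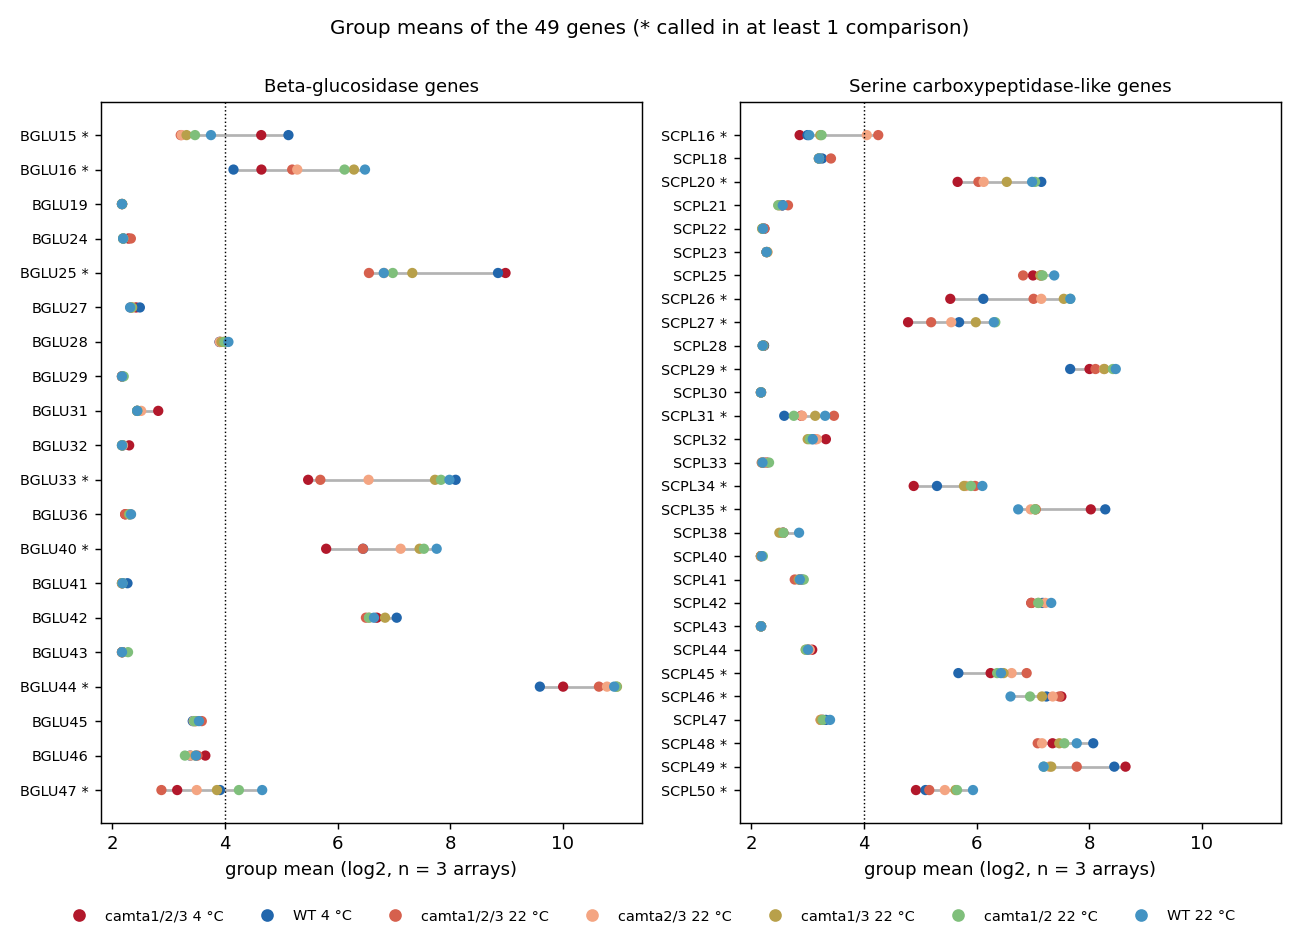
Each point is the mean log2 level of 1 group (n = 3 arrays) for 1 gene, BGLU genes on the left and SCPL genes on the right, and the dotted line marks a level of 4. The 26 genes left of the line in all groups spread little, while the genes with an asterisk, called in at least 1 comparison, spread by up to 2.62.

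In the RefSeq annotation (assembly TAIR10.1) 8 pairs of the 49 genes lie next to each other with no protein-coding gene between them. In 4 pairs 1 gene was called and its neighbour never was: BGLU15 and BGLU28, BGLU16 and BGLU27, BGLU44 and BGLU43, and SCPL26 and SCPL28. In the other 4 pairs (BGLU28 and BGLU29, BGLU31 and BGLU32, BGLU45 and BGLU46, SCPL22 and SCPL23) neither was called. All the uncalled genes of these pairs except BGLU28 had low signal, so the pairs say little about neighbours.

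After 24 h at 4 °C, BGLU25, BGLU15, SCPL35 and SCPL49 rose in both genotypes, and BGLU44, SCPL26, SCPL34, SCPL45 and SCPL31 fell in both. In camta1/2/3 10 of 49 genes were called, 4 higher and 6 lower, against 22.2% of all probe sets (9.96% higher and 12.3% lower). In WT 14 of 49 genes were called, 4 higher and 10 lower, against 23.1% of all probe sets (9.93% higher and 13.1% lower). The shares of the 49 genes were 20.4% in camta1/2/3 and 28.6% in WT. Above a mean of 4, 7 of 19 genes (36.8%) were called in camta1/2/3 against 32.5% of probe sets, and 12 of 19 (63.2%) in WT against 33.8%. The median difference of these 19 genes was -0.22 in camta1/2/3 and -0.23 in WT, against -0.04 and -0.07 over the probe sets above 4 in camta1/2/3 and WT. The sets shared no array, but the fit used the same variance per probe set for both, so their calls are not independent. In both genotypes 9 genes were called, always in the same direction, which is 90% of the camta1/2/3 genes and 64.3% of the WT genes. Of all called probe sets, those called in both were 60.4% of the camta1/2/3 calls and 58.2% of the WT calls, and 99.2% of them had the same direction.

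BGLU25 (AT3G03640) had the largest rise of these genes in the cold. Its log2 levels were 8.90, 8.62 and 9.43 in camta1/2/3 at 4 °C, against 6.53, 6.10 and 7.04 in camta1/2/3 at 22 °C. They were 8.72, 8.87 and 8.96 in WT at 4 °C, against 7.54, 6.69 and 6.23 in WT at 22 °C. Every array at 4 °C lay above every array at 22 °C, those of the double mutants (6.35 to 7.49) included. The rise was 2.43 ± 0.33 (5.38-fold, adjusted p = 7.81e-05) in camta1/2/3 and 2.03 ± 0.33 (4.08-fold, adjusted p = 0.000336) in WT.

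BGLU15 (AT2G44450), an enzyme that takes glucose from flavonol bisglycosides, had low signal at 22 °C. Levels of 4.47, 4.88 and 4.58 in camta1/2/3 at 4 °C stood against 3.01, 3.05 and 3.58 in camta1/2/3 at 22 °C. In WT they were 5.33, 5.06 and 4.99 at 4 °C, against 3.51, 3.88 and 3.86 at 22 °C. Cold and warm arrays did not overlap in either genotype. The rise was 1.43 ± 0.24 (2.69-fold, adjusted p = 0.000521) in camta1/2/3 and 1.38 ± 0.24 (2.60-fold, adjusted p = 0.000652) in WT.

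SCPL49 (AT3G10410) encodes a carboxypeptidase Y, a vacuolar protease. It had 9.07, 8.29 and 8.58 in camta1/2/3 at 4 °C, against 7.79, 7.69 and 7.86 in camta1/2/3 at 22 °C, and 8.33, 8.39 and 8.62 in WT at 4 °C, against 7.57, 7.13 and 6.87 in WT at 22 °C. The cold groups lay above the warm ones in both genotypes. The rise was 0.87 ± 0.26 (1.82-fold, adjusted p = 0.0243) in camta1/2/3 and 1.26 ± 0.26 (2.39-fold, adjusted p = 0.00211) in WT. In camta1/2/3 it was not called without replicate 1 at 22 °C (adjusted p = 0.0611), replicate 2 at 22 °C (0.0679) or replicate 1 at 4 °C (0.109).

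SCPL35 (AT5G08260) rose too. Its levels were 8.47, 7.42 and 8.20 in camta1/2/3 at 4 °C, against 7.24, 6.89 and 7.03 in camta1/2/3 at 22 °C. In WT they were 8.59, 7.92 and 8.35 at 4 °C, against 6.68, 6.67 and 6.87 at 22 °C. The groups did not overlap, though replicate 2 of camta1/2/3 at 4 °C lay only a little above the warm arrays. The rise was 0.98 ± 0.21 (1.97-fold, adjusted p = 0.00289) in camta1/2/3 and 1.55 ± 0.21 (2.92-fold, adjusted p = 5.66e-05) in WT.

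Of the genes that fell in both genotypes, SCPL26 (AT2G35780) had the smallest adjusted p. Its levels were 5.42, 5.84 and 5.34 in camta1/2/3 at 4 °C, against 7.09, 6.88 and 7.07 in camta1/2/3 at 22 °C. WT plants had 6.21, 6.28 and 5.87 at 4 °C, against 7.73, 7.50 and 7.77 at 22 °C. All cold arrays lay below all warm arrays, and the fall was 2.79-fold (-1.48 ± 0.13, adjusted p = 1.37e-06) in camta1/2/3 and 2.92-fold (-1.55 ± 0.13, adjusted p = 6.49e-07) in WT.

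SCPL34 (AT5G23210) had 5.12, 4.66 and 4.87 in camta1/2/3 at 4 °C, against 5.98, 6.03 and 5.91 in camta1/2/3 at 22 °C. In WT it had 5.30, 5.48 and 5.11 at 4 °C, against 6.49, 5.77 and 6.05 at 22 °C. Here too no cold array reached a warm array of its genotype. The difference was -1.09 ± 0.16 (adjusted p = 0.000178) in camta1/2/3 and -0.81 ± 0.16 (adjusted p = 0.00196) in WT.

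BGLU44 (AT3G18080), whose protein has been shown to act as a beta-mannosidase, fell in both genotypes. It had 9.98, 9.96 and 10.08 in camta1/2/3 at 4 °C, against 10.71, 10.20 and 11.02 in camta1/2/3 at 22 °C, and 9.36, 10.14 and 9.28 in WT at 4 °C, against 10.91, 10.91 and 10.92 in WT at 22 °C. The WT arrays at 22 °C differed by only 0.01 while those at 4 °C spread widely. The fall was -0.64 ± 0.21 (adjusted p = 0.0422) in camta1/2/3 and -1.32 ± 0.21 (2.50-fold, adjusted p = 0.000287) in WT. The camta1/2/3 call was lost without replicate 1 at 22 °C (adjusted p = 0.113), replicate 3 at 22 °C (0.192), or replicate 1, 2 or 3 at 4 °C (0.0924, 0.10 and 0.0689).

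**Figure D2:**
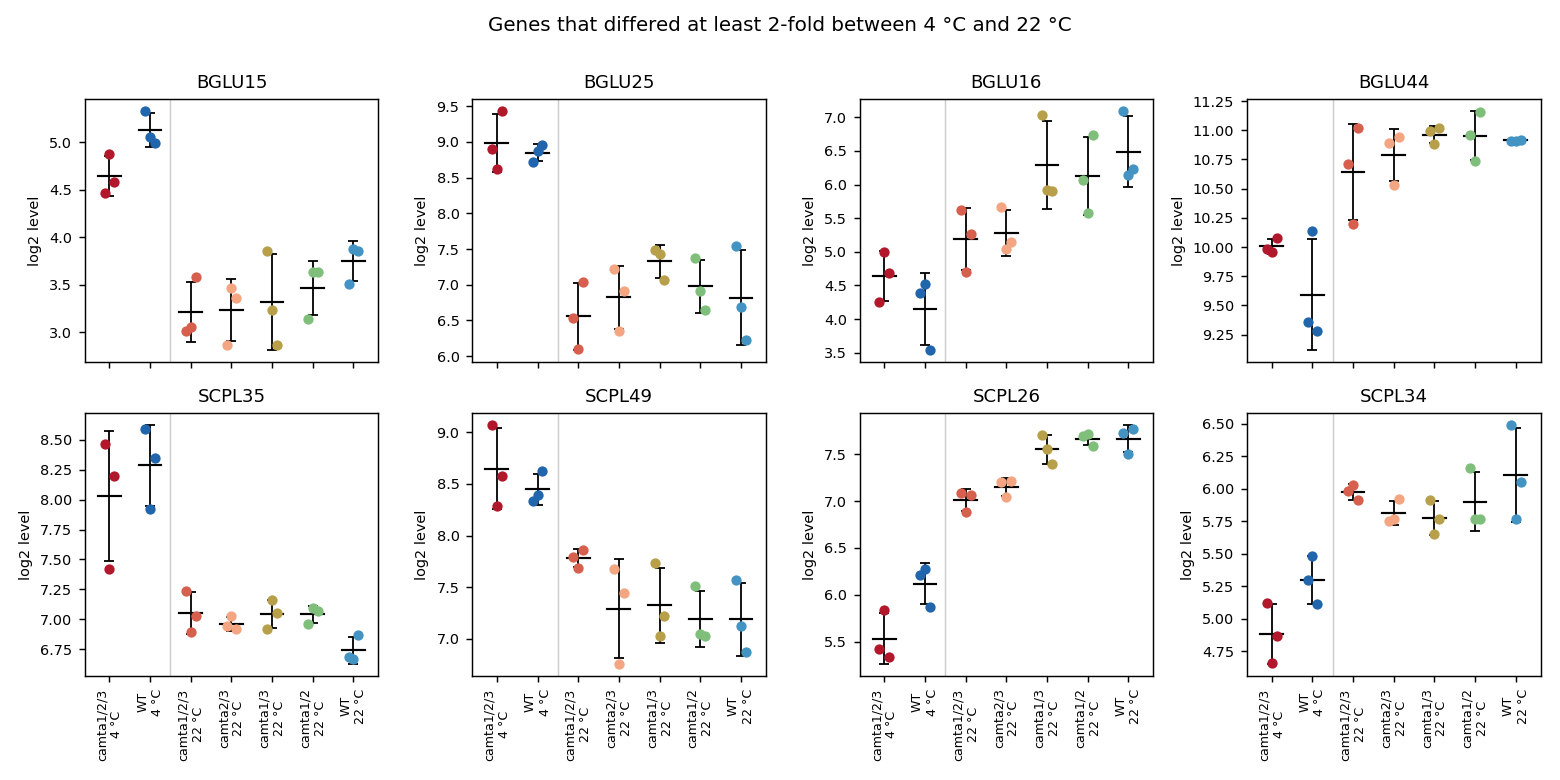
Log2 level of 8 genes on each array, with groups on the x axis (the 2 groups at 4 °C left of the grey line, the 5 groups at 22 °C right of it), points for arrays and bars for mean ± SD (n = 3). For BGLU15, BGLU25, SCPL35 and SCPL49 the cold groups of camta1/2/3 and WT stand above their warm groups, and for BGLU16, BGLU44, SCPL26 and SCPL34 the WT cold group stands below its warm group.

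A pair of BGLU genes fell in WT and missed the threshold in camta1/2/3. BGLU16 (AT3G60130) had 4.26, 5.0 and 4.68 in camta1/2/3 at 4 °C, against 5.62, 4.70 and 5.26 in camta1/2/3 at 22 °C, where the groups overlap. In WT it had 4.39, 4.52 and 3.54 at 4 °C, against 7.09, 6.14 and 6.23 at 22 °C, with no overlap. The WT fall was 5.05-fold (-2.34 ± 0.40, adjusted p = 0.00049).

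BGLU40 (AT1G26560) had 5.41, 6.28 and 5.70 in camta1/2/3 at 4 °C, against 6.06, 6.56 and 6.73 in camta1/2/3 at 22 °C, a difference of -0.65 that was not called. WT plants had 6.83, 6.27 and 6.26 at 4 °C, against 7.63, 7.67 and 7.98 at 22 °C. The WT groups lay apart, by -1.31 ± 0.23 (2.47-fold, adjusted p = 0.000729). In camta1/2/3 the fall of BGLU40 was called with only probe sets above a mean of 4 in the fit (adjusted p = 0.029). It was also called there without replicate 1 at 22 °C (0.0272) or replicate 2 at 4 °C (0.0126).

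SCPL16 (AT3G12220), of the acyltransferase branch, fell in the cold in camta1/2/3. Its levels were 3.06, 3.10 and 2.41 in camta1/2/3 at 4 °C, against 4.22, 3.63 and 4.91 in camta1/2/3 at 22 °C. In WT they were 3.06, 3.15 and 2.78 at 4 °C, against 3.15, 3.15 and 2.78 at 22 °C. Of these 4 groups, only warm camta1/2/3 had arrays over 3.15, and the difference there was -1.40 ± 0.26 (2.63-fold, adjusted p = 0.00118).

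Smaller falls were called in WT for SCPL29, SCPL50, SCPL45, SCPL31 and SCPL27. SCPL29 averaged 7.66 ± 0.26 at 4 °C and 8.47 ± 0.08 at 22 °C (-0.81, adjusted p = 0.000579), and SCPL50 5.09 ± 0.08 at 4 °C and 5.94 ± 0.18 at 22 °C (-0.84, adjusted p = 0.00194). SCPL45 averaged 5.68 ± 0.17 at 4 °C and 6.43 ± 0.12 at 22 °C in WT (-0.76, adjusted p = 0.00293), and it also fell in camta1/2/3 (-0.64, adjusted p = 0.00965). SCPL31 lay under 4 in all groups. It fell by 0.58 in camta1/2/3 (adjusted p = 0.0114) and by 0.73 in WT (adjusted p = 0.00231), and the camta1/2/3 call was lost without replicate 3 at 22 °C (adjusted p = 0.0600).

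The WT call of SCPL27 (-0.62, adjusted p = 0.0486) was lost in each of the 6 fits that left out 1 WT array, with adjusted p between 0.0511 (without replicate 2 at 22 °C) and 0.162 (without replicate 3 at 22 °C). Without replicate 1 at 22 °C it was 0.0971, and without replicates 1, 2 and 3 at 4 °C it was 0.0828, 0.0916 and 0.125. With only the arrays of the groups compared in the fit, SCPL31 (adjusted p = 0.0835) and SCPL34 (0.0879) were not called in WT, and BGLU44 (0.174), SCPL16 (0.112), SCPL35 (0.137), SCPL45 (0.2) and SCPL49 (0.0825) were not called in camta1/2/3. Both measured leaf markers, of 5 listed, fell in the cold in both genotypes. RCA averaged 12.73 ± 0.27 in camta1/2/3 and 12.86 ± 0.11 in WT at 4 °C, and LHCB4.2 10.38 ± 0.13 in camta1/2/3 and 10.29 ± 0.24 in WT at 4 °C. Their part in the results was not tested. In whole aerial parts, fewer cells of a type and less RNA per cell cannot be told apart.

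**Figure D3:**
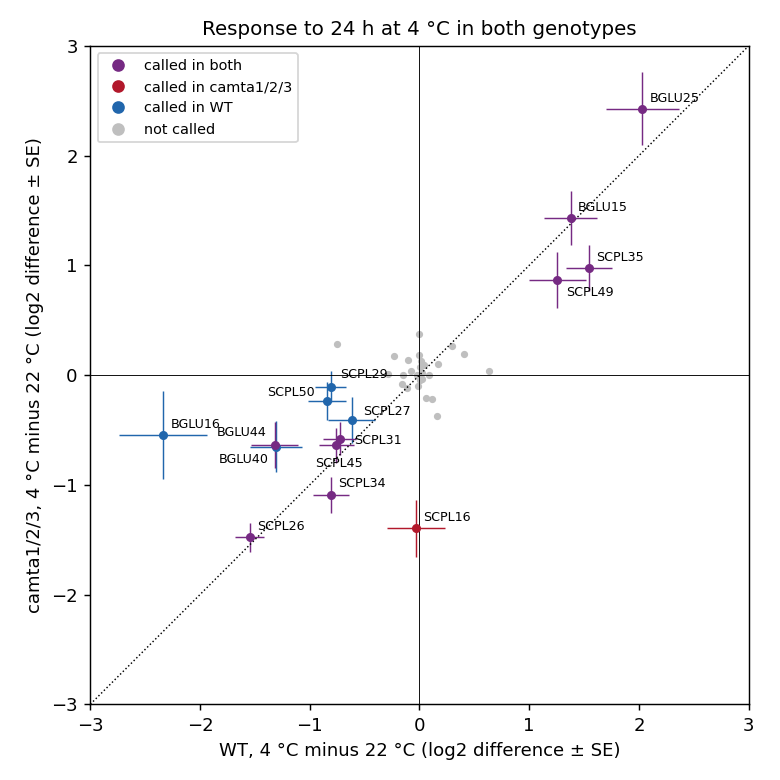
Log2 difference between 4 °C and 22 °C (± SE) for each of the 49 genes, camta1/2/3 on the y axis and WT on the x axis, with equal values on the dotted line and colours for the calls. BGLU15 and BGLU25 lie near the line at the top right, BGLU16 lies far to the left (-2.34 in WT) and SCPL16 below the centre (-1.40 in camta1/2/3).

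The response to cold was compared between camta1/2/3 and WT with an interaction term. None of the 49 genes was called by limma, against 1.97% of all probe sets, and 6 had an unadjusted p under 0.05. Of these, 5 differences were positive, which here means a less negative or a positive difference in camta1/2/3. They were 1.79 ± 0.56 for BGLU16 (adjusted p = 0.143), 1.03 ± 0.41 for BGLU47 (0.269), 0.70 ± 0.20 for SCPL29 (0.0970), 0.68 ± 0.30 for BGLU44 (0.335) and 0.61 ± 0.24 for SCPL50 (0.276). SCPL16 had -1.37 ± 0.37 (adjusted p = 0.0813). SCPL29 was called without replicate 2 of WT at 4 °C (0.85, adjusted p = 0.0278), and SCPL16 without replicate 2 of camta1/2/3 at 22 °C (-1.68, adjusted p = 0.0158). The calls made in WT and not in camta1/2/3, or the reverse, are not shown to differ between the genotypes.

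Between camta1/2/3 and WT, the family member with the largest difference at both temperatures was BGLU33. BGLU33, SCPL20, SCPL26, SCPL27 and SCPL48 were lower in camta1/2/3 at both temperatures. At 4 °C 6 of 49 genes were called, 1 higher and 5 lower, which is 12.2% against 21.1% of all probe sets (10.5% higher and 10.6% lower). At 22 °C 11 of 49 genes were called, 2 higher and 9 lower, which is 22.4% against 23.5% of all probe sets (11.1% higher and 12.4% lower). Above a mean of 4, 6 of 19 genes (31.6%) were called at 4 °C against 30.3% of probe sets, and 9 of 19 (47.4%) at 22 °C against 34.4%. The median difference of these 19 genes was -0.20 at 4 °C and -0.36 at 22 °C, against -0.03 at 4 °C and -0.04 at 22 °C over those probe sets. The 5 genes called at both temperatures kept their direction and are 83.3% of those called at 4 °C and 45.5% of those called at 22 °C. Over all probe sets, those called at both were 60.5% of the calls at 4 °C and 54.3% of the calls at 22 °C, and 99.1% of them kept their direction. LHCB4.2 was also lower at 22 °C, 11.96 ± 0.35 in camta1/2/3 and 12.45 ± 0.16 in WT (-0.49, adjusted p = 0.0468), while RCA was not called, with 13.38 ± 0.18 in camta1/2/3 and 13.66 ± 0.17 in WT. The part of leaf content in these results was not tested.

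BGLU33 (AT2G32860) is known as a vacuolar beta-glucosidase that frees abscisic acid, a hormone of drought and cold responses, from its glucose ester. Its levels were 5.36, 5.53 and 5.54 in camta1/2/3 at 4 °C, against 7.88, 8.39 and 8.02 in WT at 4 °C. At 22 °C they were 5.84, 5.41 and 5.83 in camta1/2/3, 6.62, 6.21 and 6.82 in camta2/3, 8.07, 7.50 and 7.62 in camta1/3, 8.27, 7.53 and 7.71 in camta1/2, and 7.86, 8.20 and 7.90 in WT. The camta1/2/3 arrays lay lowest at both temperatures, the camta2/3 arrays lay between them and the rest, and camta1/3 and camta1/2 overlapped WT. BGLU33 was 6.15-fold lower in camta1/2/3 at 4 °C (-2.62 ± 0.21, adjusted p = 8.77e-07) and 4.90-fold lower at 22 °C (-2.29 ± 0.21, adjusted p = 3.19e-06). It was not called for cold in either genotype.

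SCPL20 (AT4G12910) was also low in camta1/2/3 and camta2/3. It had 5.75, 5.59 and 5.65 in camta1/2/3 at 4 °C, against 7.43, 6.75 and 7.27 in WT at 4 °C. At 22 °C it had 5.96, 6.22 and 5.92 in camta1/2/3, 6.21, 6.04 and 6.13 in camta2/3, 6.87, 6.38 and 6.36 in camta1/3, 7.07, 6.94 and 7.11 in camta1/2, and 7.15, 7.22 and 6.59 in WT. The camta1/2/3 and camta2/3 arrays lay below all WT arrays. The difference was -1.49 ± 0.18 (2.80-fold lower, adjusted p = 3.64e-05) at 4 °C and -0.95 ± 0.18 (1.94-fold lower, adjusted p = 0.00132) at 22 °C.

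SCPL27 (AT3G07990) had 5.07, 4.71 and 4.57 in camta1/2/3 and 5.75, 5.70 and 5.62 in WT at 4 °C. The values at 22 °C were 5.13, 5.28 and 5.17 in camta1/2/3, 5.42, 5.62 and 5.61 in camta2/3, 6.49, 5.61 and 5.86 in camta1/3, 6.26, 5.96 and 6.78 in camta1/2, and 6.31, 6.11 and 6.50 in WT. No camta1/2/3 array reached the WT arrays of its temperature. SCPL27 was lower by 0.91 ± 0.21 on the log2 scale at 4 °C (1.88-fold, adjusted p = 0.00633) and by 1.11 ± 0.21 at 22 °C (2.16-fold, adjusted p = 0.00122).

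The remaining pair of genes lower at both temperatures had smaller differences. SCPL26 differed by -0.59 (adjusted p = 0.00471) at 4 °C and -0.65 (adjusted p = 0.00184) at 22 °C. SCPL48, related to carboxypeptidase Y, averaged 7.35 ± 0.19 in camta1/2/3 and 8.07 ± 0.33 in WT at 4 °C (-0.72, adjusted p = 0.00445), and 7.09 ± 0.12 in camta1/2/3 and 7.78 ± 0.11 in WT at 22 °C (-0.69, adjusted p = 0.00504). SCPL45 was higher in camta1/2/3 at 4 °C, 6.25 ± 0.43 against 5.68 ± 0.17 in WT (0.57, adjusted p = 0.0196), but the arrays overlapped. That call was lost without replicate 1 of camta1/2/3 at 4 °C (0.36, adjusted p = 0.0871) or replicate 1 of WT at 4 °C (0.48, adjusted p = 0.0887).

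At 22 °C further genes were lower in camta1/2/3. BGLU47 (AT4G21760), a relative of the monolignol glucosidases BGLU45 and BGLU46, had 2.78, 2.89 and 2.94 in camta1/2/3, 3.35, 3.50 and 3.64 in camta2/3, 3.49, 4.57 and 3.51 in camta1/3, 3.96, 4.19 and 4.59 in camta1/2, and 4.31, 4.56 and 5.11 in WT. The arrays of camta1/2/3 and camta2/3 lay below all WT arrays. The difference of camta1/2/3 was -1.79 ± 0.29 (3.46-fold lower, adjusted p = 0.000305). At 4 °C BGLU47 had 3.04, 3.06 and 3.35 in camta1/2/3 and 3.87, 3.47 and 4.39 in WT, and this difference of -0.76 was not called (adjusted p = 0.0754). Since the camta1/2/3 levels at 22 °C may be background, the fold there may be a lower bound. At 4 °C BGLU47 was called with quantile normalization (adjusted p = 0.0436), with arrays centred on their medians (0.0454) and without replicate 2 of WT (0.0357).

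BGLU40 at 22 °C had the camta1/2/3 and WT values given above, with 6.82, 7.22 and 7.32 in camta2/3, 7.22, 7.41 and 7.74 in camta1/3 and 7.66, 7.44 and 7.50 in camta1/2. The arrays of camta1/2/3 lay below all others at 22 °C, and the difference from WT was -1.31 ± 0.23 (2.48-fold lower, adjusted p = 0.000723). BGLU40 was not called at 4 °C (-0.66, adjusted p = 0.0597). It was called there with quantile normalization (adjusted p = 0.0453), with arrays centred on their medians (0.0386) and with only probe sets above a mean of 4 (0.0302). Leaving out replicate 2 of camta1/2/3 at 4 °C also made the call (0.0143).

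BGLU16 at 22 °C was 2.45-fold lower in camta1/2/3 (-1.29 ± 0.40, adjusted p = 0.0275), with 5.67, 5.04 and 5.14 in camta2/3, 7.04, 5.92 and 5.91 in camta1/3 and 6.07, 5.57 and 6.73 in camta1/2. Its call was lost without replicate 1 of WT (adjusted p = 0.119), or without replicate 2 (0.115) or 3 (0.0596) of camta1/2/3. SCPL50 averaged 5.16 ± 0.07 in camta1/2/3 and 5.94 ± 0.18 in WT (-0.78, adjusted p = 0.00352).

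The genes higher in camta1/2/3 at 22 °C were SCPL16 and SCPL46. The double mutants had SCPL16 levels of 4.41, 3.81 and 3.93 in camta2/3, 3.15, 3.37 and 3.15 in camta1/3 and 3.36, 3.23 and 3.15 in camta1/2. Together with the values above, camta1/2/3 and camta2/3 lay over all WT arrays, whose levels are near background. The difference of camta1/2/3 was 1.23 ± 0.26 (2.34-fold, adjusted p = 0.00284). SCPL46 averaged 7.47 ± 0.54 in camta1/2/3 and 6.60 ± 0.21 in WT (0.87, adjusted p = 0.0273). This call was lost without replicate 2 or 3 of WT (adjusted p = 0.0874 and 0.0856) or replicate 1 or 3 of camta1/2/3 (0.0955 and 0.128).

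**Figure D4:**
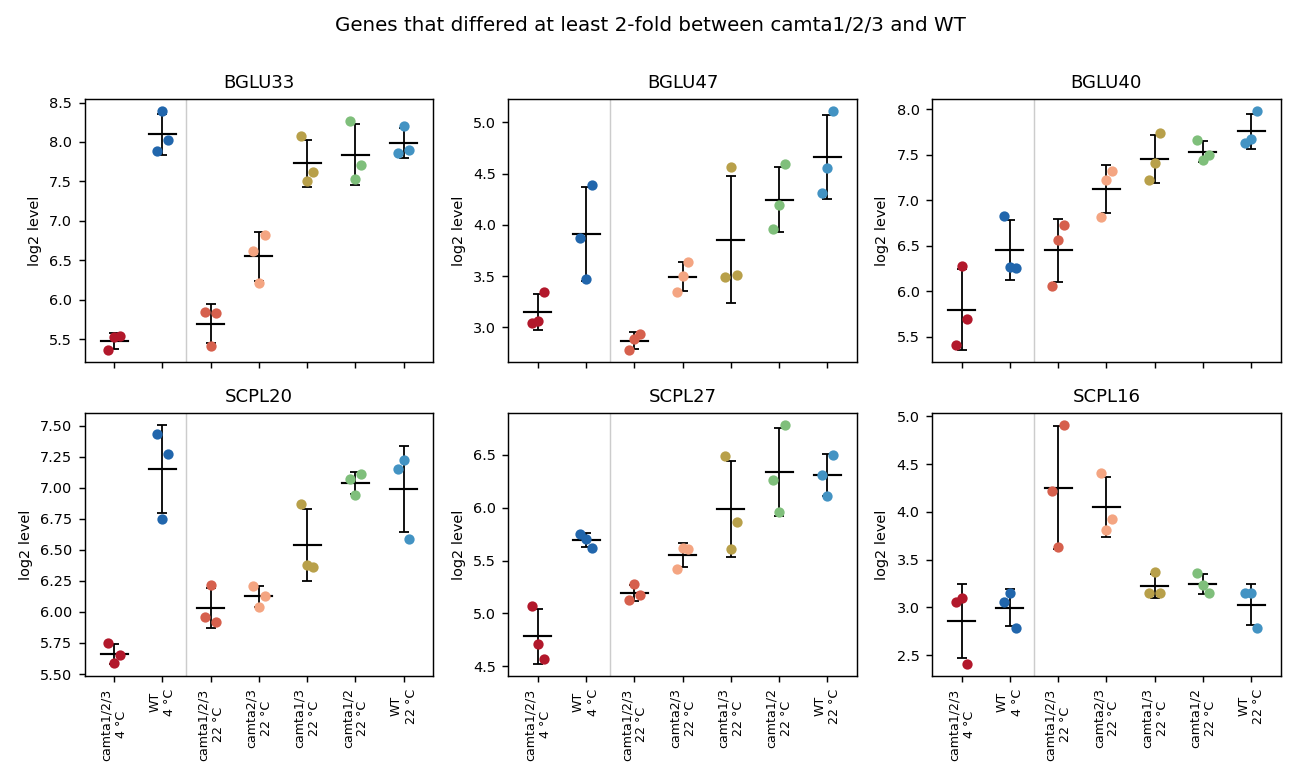
Log2 level of 6 genes on each array, with groups on the x axis (the 2 groups at 4 °C left of the grey line, the 5 groups at 22 °C right of it), points for arrays and bars for mean ± SD (n = 3). BGLU33 and SCPL20 stand lower in camta1/2/3 than in WT at both temperatures, and SCPL16 stands higher in camta1/2/3 and camta2/3 than in WT at 22 °C, while camta1/2/3 and WT overlap at 4 °C.

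With only the arrays of the groups compared in the fit, SCPL26 (adjusted p = 0.150), SCPL45 (0.264) and SCPL48 (0.116) were not called at 4 °C, nor BGLU16 (0.101), SCPL16 (0.105) and SCPL46 (0.160) at 22 °C. The actin difference was wider in camta1/2/3 than in WT. When it entered the fit as a covariate, SCPL48 at 4 °C missed the threshold (-0.64, adjusted p = 0.0640) while BGLU33 and SCPL20 kept their calls. The covariate also made calls, all higher in camta1/2/3. They were BGLU31 at 4 °C (0.64, adjusted p = 0.0494), and SCPL35 (0.64, 0.0021) and SCPL45 (0.63, 0.0093) at 22 °C.

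Among the double mutants at 22 °C, the calls lay in camta2/3. In camta2/3 7 of 49 genes were called against WT, 1 higher and 6 lower, which is 14.3% against 10.1% of all probe sets (4.61% higher and 5.51% lower). Above a mean of 4 it was 5 of 19 genes (26.3%) against 15.2% of probe sets. The actin difference was 2.62 ± 0.16 in camta2/3, 2.48 ± 0.26 in camta1/3, 2.09 ± 0.05 in camta1/2 and 2.23 ± 0.21 in WT. When the fit took account of it, the SCPL27 call in camta2/3 was lost (adjusted p = 0.0525) and SCPL35 was called higher in camta2/3 (0.41, adjusted p = 0.0394). In camta1/3 no gene was called by limma, against 2.21% of all probe sets, and 3 had an unadjusted p under 0.05. In camta1/2 none was called, against 0.163% of all probe sets, and 2 had an unadjusted p under 0.05. The mutants were compared with the same WT arrays, so their differences share the WT error.

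The genes lower in camta2/3 were BGLU33 (-1.44 ± 0.21, 2.71-fold, adjusted p = 0.000560), BGLU47 (-1.16 ± 0.29, 2.24-fold, adjusted p = 0.0169), SCPL20 (-0.86, adjusted p = 0.00709), SCPL27 (-0.76, adjusted p = 0.0340), SCPL48 (-0.62, adjusted p = 0.0231) and SCPL26 (-0.52, adjusted p = 0.0201). SCPL16 was higher (1.02 ± 0.26, 2.03-fold, adjusted p = 0.0207). BGLU16 (-1.20, adjusted p = 0.073), BGLU40 (-0.64, adjusted p = 0.106), SCPL46 (0.75, adjusted p = 0.0968) and SCPL50 (-0.50, adjusted p = 0.0834) missed the threshold. BGLU16 was called lower with only probe sets above a mean of 4 (adjusted p = 0.023) and with array weights (0.029). SCPL46 was called higher with those settings (adjusted p = 0.0429 and 0.0347) and with quantile normalization (0.0498). Array weights also called SCPL31 lower (-0.47, adjusted p = 0.0298). The values for camta1/3 were -0.80 for BGLU47 (adjusted p = 0.212) and -0.45 for SCPL20 (adjusted p = 0.316), and BGLU33 in camta1/2 had -0.15.

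Several camta2/3 calls depended on single arrays. The count fell to 4 without replicate 1 of WT or replicate 2 of camta2/3, and to 3 without replicate 3 of WT or replicate 1 of camta2/3. SCPL26, SCPL27 and SCPL48 lost their calls without replicate 1 of WT (adjusted p = 0.0583, 0.0703 and 0.0565), and these genes with BGLU47 (0.0894) and SCPL16 (0.0935) without replicate 3 of WT (0.0867, 0.135 and 0.0888), while SCPL31 was then called (-0.57, adjusted p = 0.0312). Without replicate 1 of camta2/3, BGLU47 (0.0656), SCPL16 (0.0998), SCPL27 (0.116) and SCPL48 (0.0644) were lost, without replicate 2 SCPL26 (0.0816), SCPL27 (0.0694) and SCPL48 (0.106), and without replicate 3 SCPL27 (0.0749). BGLU33 and SCPL20 kept their calls in all 6 of these fits. With only the arrays of camta2/3 and WT in the fit, BGLU33 and SCPL27 were called, and SCPL20 (adjusted p = 0.0854), BGLU47 (0.0688), SCPL16 (0.069), SCPL26 (0.0562) and SCPL48 (0.0853) were not.

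**Figure D5:**
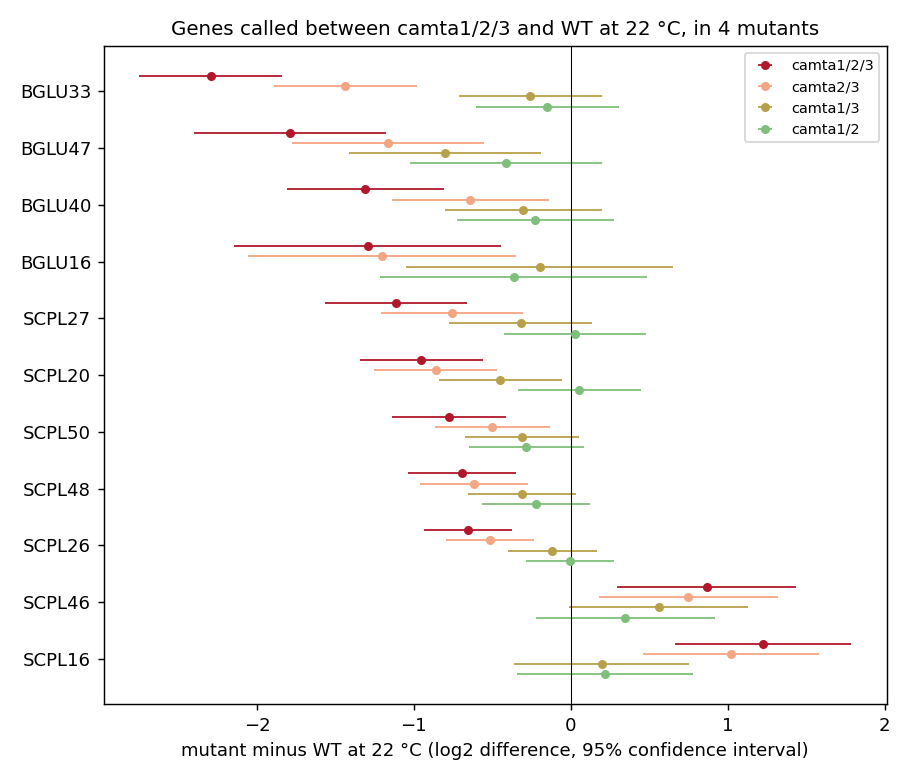
Log2 difference from WT at 22 °C with its 95% confidence interval (x axis) in 4 mutants (colours) for the 11 genes called between camta1/2/3 and WT at 22 °C (y axis). For BGLU33 camta1/2/3 (-2.29) and camta2/3 (-1.44) lie far below 0 while the intervals of camta1/3 and camta1/2 include 0.

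Double mutants were also compared with each other and with the triple mutant. Between camta2/3 and camta1/2, 2 of 49 genes were called, both lower in camta2/3, which is 4.08% against 1.42% of all probe sets (0.712% lower). They were BGLU33 (-1.29 ± 0.21, adjusted p = 0.00839) and SCPL20 (-0.91 ± 0.18, adjusted p = 0.0230). The SCPL20 call was lost without replicate 1 or 3 of camta1/2 (adjusted p = 0.0835 and 0.0912) or replicate 1, 2 or 3 of camta2/3 (0.0588, 0.0901 and 0.0791), and with the actin covariate (0.0631). With that covariate SCPL26 was called lower in camta2/3 (-0.63, adjusted p = 0.0224). The BGLU33 call was lost with only the arrays of these groups in the fit (adjusted p = 0.174). Between camta1/2/3 and camta2/3 no gene was called by limma, against 1.43% of all probe sets, and 5 had an unadjusted p under 0.05. For BGLU33 this difference was -0.86, with a 95% confidence interval of -1.31 to -0.40 and an adjusted p of 0.0645. BGLU33 was called lower in camta1/2/3 with quantile normalization (adjusted p = 0.0236), with only probe sets above a mean of 4 (0.0346) and with array weights (0.00474). With array weights BGLU40 was also called lower (adjusted p = 0.0152) and SCPL31 higher (0.00547).

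Genes that act around these enzymes were followed in lists, of which only part had a probe set named here. Of 12 further genes of glycoside hydrolase family 1 under other symbols, 2 were measured. PYK10 (BGLU23), the beta-glucosidase of ER bodies, averaged 7.14 ± 0.18 in camta1/2/3 and 6.40 ± 0.05 in WT at 4 °C, against 8.83 ± 0.43 in camta1/2/3 and 7.97 ± 0.48 in WT at 22 °C. It fell in the cold by 1.69 in camta1/2/3 (adjusted p = 0.00101) and by 1.57 in WT (adjusted p = 0.00167). ATA27 (BGLU20) stayed at background, with group means of 2.17 to 2.25. None of 5 SCPL genes under other symbols was measured.

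Of 21 genes of ER bodies and of proteins that bind myrosinases or PYK10, 5 were measured. In the cold 3 fell and none rose in each genotype. NAI2, needed to form ER bodies, fell by 1.77 in camta1/2/3 (adjusted p = 0.00134) and by 1.94 in WT (adjusted p = 0.000586). The jacalin-related lectin JAL23 was lower in camta1/2/3 than in WT at 4 °C (-0.87, adjusted p = 0.0474) and at 22 °C (-2.79, adjusted p = 8.74e-06), and the other 4 measured genes were not called between these genotypes.

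Of 10 genes of abscisic acid turnover, 4 were measured. The glucosyltransferases among them attach the glucose that BGLU33 removes. Between camta1/2/3 and WT 2 were higher and none lower at each temperature. UGT71B6, which glucosylates abscisic acid, averaged 3.61 ± 0.33 in camta1/2/3 and 2.95 ± 0.03 in WT at 4 °C (0.67, adjusted p = 0.0362), and 3.94 ± 0.56 in camta1/2/3 and 2.79 ± 0.22 in WT at 22 °C (1.15, adjusted p = 0.000957). All group means of UGT71B6 lay under 4, the mark of low signal, and its WT level may be background. The listed locus AT3G21790 was higher by 1.29 at 4 °C (adjusted p = 3.05e-05) and by 1.12 at 22 °C (adjusted p = 0.0001). UGT71B8 and UGT71C5 were not called at either temperature.

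Of 18 genes of sinapate ester and coumarin synthesis, 7 were measured. Between camta1/2/3 and WT 3 were higher and 1 lower at 4 °C, and 2 were higher and 1 lower at 22 °C. AT3G13610 (F6'H1), which makes the precursor of scopoletin, averaged 7.91 ± 0.72 in camta1/2/3 and 4.66 ± 0.15 in WT at 4 °C (3.26, adjusted p = 1.75e-05), and 6.46 ± 0.43 in camta1/2/3 and 4.46 ± 0.09 in WT at 22 °C (2.00, adjusted p = 0.000954). AT3G13610 had the same value, 4.51, in replicate 1 of WT at 4 °C and in replicates 1 and 2 of WT at 22 °C. Its WT level may thus be background, and its differences may be lower bounds. ALDH2C4, which makes ferulate and sinapate, was higher by 1.17 at 4 °C (adjusted p = 0.000454) and by 1.25 at 22 °C (adjusted p = 0.000218). UGT84A3, a sinapate glucosyltransferase, rose in the cold by 1.28 in camta1/2/3 (adjusted p = 0.00154) and by 2.09 in WT (adjusted p = 1.91e-05), and was lower in camta1/2/3 than in WT at 4 °C (-1.21, adjusted p = 0.00257).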

How the data were processed

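Transcript levels of 21 array hybridizations were used as deposited. The deposited values are log2 levels that the authors normalized with GCRMA, and limma was used by them, per the submitters' processing notes. Neither a version nor a genome build is given in the sources used here. RNA was amplified and labelled with biotin, per the labels' protocols.

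Of 22810 probe sets 64 controls were left out, and no filter on low values was set. Names came from an annotation of 14016 probe sets, of which 13513 map to 1 gene and 503 to more. Unnamed probe sets stayed in the tests. With limma 3.58.1 in R 4.3.3 (lmFit and eBayes), 1 model with 7 group means took in every array and had 14 residual and 0.954 prior degrees of freedom. From it 10 two-sided comparisons were tested, each adjusted by the Benjamini-Hochberg method over 22746 probe sets. The fit was tested on simulated data. The precision of each value is limited by the 3 arrays per group. No array pair held identical values, and arrays of a group correlated at 0.984 to 0.995.

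Values by array are given for the 14 genes called with a log2 difference of at least 1 for cold in either genotype, for camta1/2/3 against WT at either temperature, or in the interaction. Other genes are given by means, ranges and counts, and list genes by counts with up to 3 called ones. Genes of low signal in all groups are given by name and range. The members and lists were chosen with earlier results of these data known. Alternatives were leaving out each array, the actin covariate, a fit of the compared groups alone, a replicate block, array weights, a robust or a trended variance, a level filter, median centring and quantile normalization. Probe, promoter and protein sequences were not used here.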

Additional observations from a re-analysis of the deposited data

Results flagged for a closer look

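None of the 49 genes met the criteria for a closer look, and 2 of the list genes did, each because the response to cold differed between camta1/2/3 and WT by the interaction test in limma. JAL23, a jacalin-related lectin, averaged 3.74 ± 0.37 in camta1/2/3 at 4 °C, against 3.74 ± 0.41 in camta1/2/3 at 22 °C, and 4.60 ± 0.25 in WT at 4 °C, against 6.53 ± 0.72 in WT at 22 °C (SD, n = 3 each). The camta1/2/3 response minus the WT response was 1.92 ± 0.41 (log2 difference ± SE, adjusted p = 0.0267). Both camta1/2/3 means lay under 4, the mark of low signal, so a fall in the cold there might not show.

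HCT, a hydroxycinnamoyl transferase of phenylpropanoid synthesis, averaged 9.33 ± 0.20 in camta1/2/3 at 4 °C, against 8.79 ± 0.08 in camta1/2/3 at 22 °C, and 8.46 ± 0.31 in WT at 4 °C, against 9.54 ± 0.08 in WT at 22 °C. It rose in the cold in camta1/2/3 (0.54, adjusted p = 0.0211) and fell in WT (-1.09, adjusted p = 0.000105), and the difference of the responses was 1.62 ± 0.22 (adjusted p = 0.00138).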

How the results depend on the processing

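Of 50 called values of single genes, 27 kept their call and direction under every setting that applied to them. Without 1 array 13 lost the call, and 22 lost it under another setting. Some values lost it in both ways and are in both counts, and none reversed. The filter on a mean level of 4 left out BGLU15, BGLU47, SCPL16 and SCPL31, so their calls were not tried under it. Leaving out 1 array moved the number of genes called to between 13 and 14 for cold in WT (14 with all arrays), 8 and 12 for cold in camta1/2/3 (10), 0 and 1 for the interaction (0), 5 and 9 at 4 °C (6) and 10 and 11 at 22 °C (11) between camta1/2/3 and WT, 0 and 1 for camta1/2 (0), 3 and 7 for camta2/3 (7), and 1 and 3 for camta2/3 against camta1/2 (2). It stayed at 0 for camta1/3 and for camta1/2/3 against camta2/3. Replicate 2 of camta1/2/3 at 4 °C had the widest actin difference (4.25). Without it, BGLU40 (-0.90, adjusted p = 0.0126), BGLU42 (0.64, 0.0243) and BGLU31 (0.56, 0.03) were called for cold in camta1/2/3, and BGLU44 was not (0.10). At 4 °C BGLU40 (-0.90, 0.0143) and BGLU31 (0.56, 0.0344) were then called between camta1/2/3 and WT. Replicate 2 of WT at 4 °C had the widest actin difference of its group (2.71). Without it, BGLU44 (0.69, adjusted p = 0.0158) and SCPL29 (0.49, 0.0233) were called higher in camta1/2/3 at 4 °C, and BGLU47 lower (-0.98, 0.0357). SCPL48 was then called for cold in WT (0.47, adjusted p = 0.0429). Array weights gave 1 call in the interaction (SCPL16, -1.62, adjusted p = 0.0413), 3 between camta1/2/3 and camta2/3, and 6 between camta2/3 and camta1/2. Quantile normalization and the filter on a mean level of 4 each gave 1 call between camta1/2/3 and camta2/3. With only the arrays of the groups compared, 5 genes were called for cold in camta1/2/3, 3 between camta1/2/3 and WT at 4 °C, 2 between camta2/3 and WT and 1 between camta2/3 and camta1/2, from fits with fewer residual degrees of freedom. SCPL27 for cold in WT also missed the threshold with quantile normalization (adjusted p = 0.0899), median centring (0.0719), array weights (0.0905) and the actin covariate (0.0625), and SCPL27 in camta2/3 with the actin covariate (0.0525). The cause of these changes was not tested. The labels do not say that a replicate number marks a shared batch, so the numbers were not taken as pairs. With the group means taken out, 27 of 63 pairs of the same number in different groups correlated over 0.1. The median correlation was 0.083 for the same number and -0.040 for other numbers. By the same measure 16 of 21 arrays were closest to an array of their own number, a hint from the data that numbers may mark batches. With the replicate block the counts in camta1/2/3 were 9 for cold and 12 against WT at 22 °C, the others were as without it, and BGLU44 for cold in camta1/2/3 had an adjusted p of 0.0509. Counting all probe sets of the genes gave the same values, since each has 1.

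The main limits are the 3 arrays per group, the lack of detection calls for the 26 genes of low signal, and mutants whose genotype the arrays could not show. Warm plants are labelled as 3 weeks old, and the labels give no harvest time, so cold, the added day and the time of harvest cannot be told apart.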
